A study of Mus musculus with 8 samples.

Results

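The windows described here are 1966 stretches of 1000 bp on mouse chromosomes 1 to 19 that held few measured CpG dinucleotides and were unmethylated at most of them in a sham-operated kidney. They were chosen by a rule on read counts: 3 to 5 CpG positions with at least 10 reads in all 8 libraries, and a median methylation level below 10% over those positions in the sham library of the ischemia experiment. They made up 3.64% of the 53982 autosomal windows with 3 to 5 positions, and 2.10% of all 93730 windows with 3 or more positions. The rule used the ischemia sham library, so levels and differences that involve it are given as a description, with no test.

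The assay was RRBS, or reduced representation bisulfite sequencing: DNA is cut by MspI at CCGG, and bisulfite turns unmethylated cytosines into uracil, read as thymine. All DNA came from kidney cortex and outer medulla of wild type male C57BL/6J mice; no ages are stated in the labels. The group "UUO with 5AZA" (2 libraries) had a unilateral ureter obstruction at 7 days and intraperitoneal 5AZA, a nucleoside inhibitor of DNA methyltransferases, in saline at 1 mg/kg per day, the group "UUO" (2 libraries) had the obstruction without 5AZA (the labels do not say whether these mice were given saline, so 5AZA and its injection cannot be told apart), and the group "UUO sham" (1 library) had the operation without ligation. The groups "ischemia 1 month" and "ischemia 1 week" (1 library each) had both renal pedicles clamped for 25 minutes followed by 1 month or 1 week of reperfusion, and the group "ischemia sham" (1 library) was operated on without clamping. The labels do not say whether the paired libraries came from separate animals, so the spread within a pair may be technical.

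In mammalian DNA most CpG dinucleotides outside CpG islands carry methylation, while CpG islands at promoters are mostly free of it. CpG-poor stretches with little methylation are known as a feature of distal regulatory elements such as enhancers, and also of the flanks of islands. The deposited tables carry no gene names, and the windows are therefore named by their coordinates on the mouse build mm9.

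The libraries held 57853745 to 86411736 reads over CpG positions, and the median position had 33 to 48 reads. Within the 1966 windows, 610 held 3 measured positions, 457 held 4 and 899 held 5. The term CpG-poor refers to positions that passed the read minimum: over positions seen at any depth in any library, the windows held a median of 8 (quartiles 5 and 12), and 586 of them (29.8%) held 3 to 5. CpG-poor windows with a median of 90% or more in the ischemia sham library held a median of 5 such positions (quartiles 4 and 7), and 60.7% of them held 3 to 5. The unmethylated windows were thus richer in CpG than the count of measured positions alone shows. They occurred on every autosome, from 55 windows on chromosome 18 to 156 on chromosome 2, and formed 3.08% (chromosome 12) to 4.49% (chromosome 7) of a chromosome's CpG-poor windows.

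Position within the MspI fragment divided the CpG positions of these windows sharply. Per the labels' protocols, the nucleotides used to fill in fragment ends included methylated dCTP, so a cytosine in a filled-in end can read as methylated whatever its state in the tissue. Of the 8153 positions, 4329 (53.1%) were fragment edges by read depth, that is, the depth of the 8 libraries changed by more than 10% in sum to a neighbouring CpG, or no neighbour with at least 40 summed reads lay within 250 bp on one side. The edges were divided further, after their values were seen, into 1962 outermost positions, with no such neighbour on at least 1 side, and 2367 depth-step positions, with neighbours on both sides. Every one of the 1966 windows held an edge position, 1636 held an outermost one and 1713 held at least 1 position inside fragments. The other 253 windows had no position inside fragments.

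Outermost positions were highly methylated in windows chosen for low methylation. Between 96.84% and 97.25% of the 1962 outermost positions read 20% or more in each library, with library medians of 71.3% to 76.6%. Depth-step positions were mixed, with library medians of 1.43% to 3.45% and with 23.83% to 25.77% of them at 20% or more. Inside fragments, 91.24% and 90.87% of the 3824 positions lay below 10% in the UUO libraries, against 95.16% in the UUO sham library, and 99.14% lay below 10% in the ischemia sham library that the rule used. A window's level over all its positions, with library means of 22.53% to 25.41%, therefore mixed both kinds, and the levels below are given inside fragments unless stated.

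**Figure D1:**
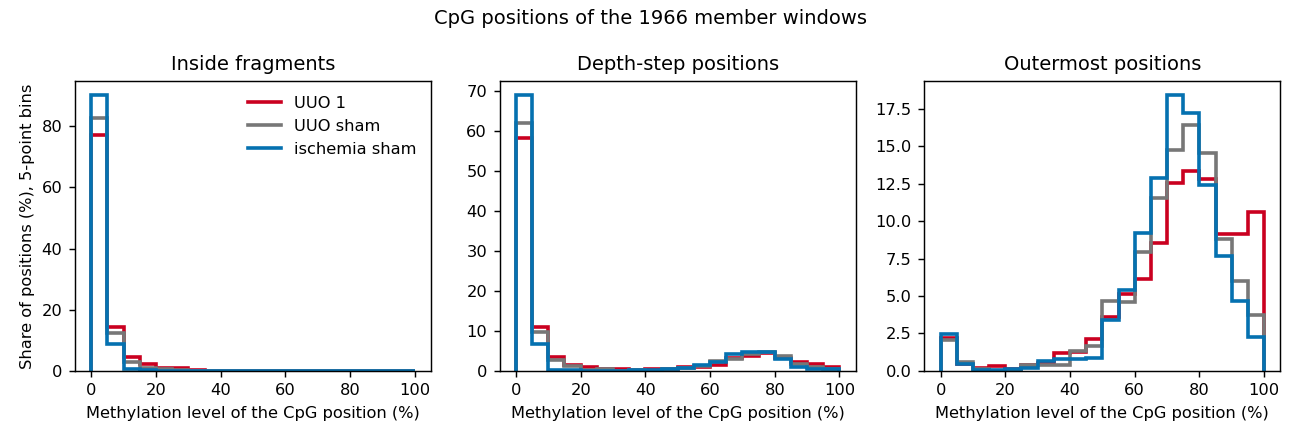
Share of CpG positions (percent, y axis, separate scale in each panel) by methylation level in bins of 5 percentage points (x axis), for 3824 positions inside fragments, 2367 depth-step positions and 1962 outermost positions, in UUO 1 (red), UUO sham (grey) and ischemia sham (blue). Positions inside fragments pile up near 0, outermost positions lie mostly between 50% and 100%, and depth-step positions hold both kinds.

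The median rule also left windows out through their edges. Of 37091 CpG-poor windows with a position inside fragments, 3038 had a level below 10% there in the ischemia sham library, and 1331 of these (43.8%) were not among the 1966. The median share of edge positions was 66.7% in those left out and 40.0% in the members. In the other direction, 6 of the members were at 10% or more inside fragments in that library. At the threshold itself, the members closest to it were chromosome 19, 4213001 to 4214000, at a median of 9.89%, and chromosome 3, 96616001 to 96617000, at 9.88%, while the nearest windows outside, such as chromosome 1, 59641001 to 59642000, had a median of 10.0%.

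Methylation inside these windows was higher after ureter obstruction than in the matching sham and lower again with 5AZA, by about 1 percentage point in the mean. The mean level inside fragments over 1713 windows was 2.91% and 2.86% in the UUO with 5AZA libraries, 3.73% and 3.80% in the UUO libraries and 2.77% in the UUO sham library. Both UUO libraries lay above the other 3 libraries of the obstruction experiment, and the UUO with 5AZA libraries lay just above the sham. As group means, UUO with 5AZA had 2.88% ± 0.04 and UUO had 3.76% ± 0.05 (SD, n = 2 each). The UUO level was 1.00 points above the UUO sham, which is 36.1% of the sham level, and UUO with 5AZA was 0.88 points below UUO, which is 23.4% of the UUO level, and 0.12 points above the sham. The first 2 differences exceeded the spread within the pairs, and no test was made on a mean over chosen windows. The UUO sham is 1 library with no spread of its own. The rule chose low levels in a sham kidney, which can lower the UUO sham relative to UUO, and this was not tested. Other measures moved with the difference of UUO from the UUO sham and from UUO with 5AZA. The lowest of 10 mitochondrial positions shared by all libraries read 0.81% and 0.86% in the UUO with 5AZA libraries, 1.08% and 1.23% in the UUO libraries and 0.92% in the UUO sham library, and the means over the 10 positions were 30.94% and 31.21%, 41.82% and 34.60%, and 32.62% in the same groups. Outermost edge positions, described below, also had their highest level in UUO. The part of either in the result was not tested. DNA of the whole tissue was measured, so a change within cells and a change in which cells were present cannot be told apart.

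The difference was small in most windows and larger in some. The median window had 1.96% and 2.02% in the UUO with 5AZA libraries, 2.16% and 2.40% in the UUO libraries and 1.83% in the UUO sham library. Windows at 10% or more numbered 77 and 68 in the UUO with 5AZA libraries, 144 and 140 in the UUO libraries and 68 in the UUO sham library. The number in UUO was thus near double that in its sham, while 1446 windows (84.4%) stayed below 10% in all 8 libraries. Among the 10726 CpG-dense unmethylated windows described below, 1.32% and 1.48% were at 10% or more in UUO and 1.14% in the sham. The shares of members were 8.41% and 8.17%, and 3.97%. With 5AZA they were 0.97% and 1.01% in the CpG-dense windows and 4.50% and 3.97% in the members. UUO was thus above its sham in both classes, by more in the members. CpG-dense windows held more reads inside fragments (medians of 1032 to 1501.5, against 105 to 126), which limits the comparison. In the mean level inside fragments, CpG-poor windows with a median of 10 to 90% in the ischemia sham moved more than the members. UUO minus its sham was 3.52 points there, and UUO with 5AZA minus UUO was -7.76 points. In CpG-poor windows at 90% or more, these differences were 0.12 and -5.94 points. UUO with 5AZA minus UUO sham was -4.24 and -5.82 points in these classes, in the same order. Their higher levels limit this comparison. Of the 77 members at 10% or more in both UUO libraries, 45 were below 10% in the sham, against 17 members at 10% or more in the sham and in neither UUO library. With 5AZA, 30 of the 77 were below 10% in both libraries, while 2 windows showed the reverse. Among windows with at least 50 reads inside fragments in every library (1117 windows), 26 were at 10% or more in both UUO libraries and below in the sham, and 6 the reverse. The members were chosen for low levels in a sham kidney, which by itself can favour 45 over 17 and 26 over 6. Nothing is read from these splits. Whether such crossings of 10% by both libraries of a pair are particular to the members was not tested.

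**Figure D2:**
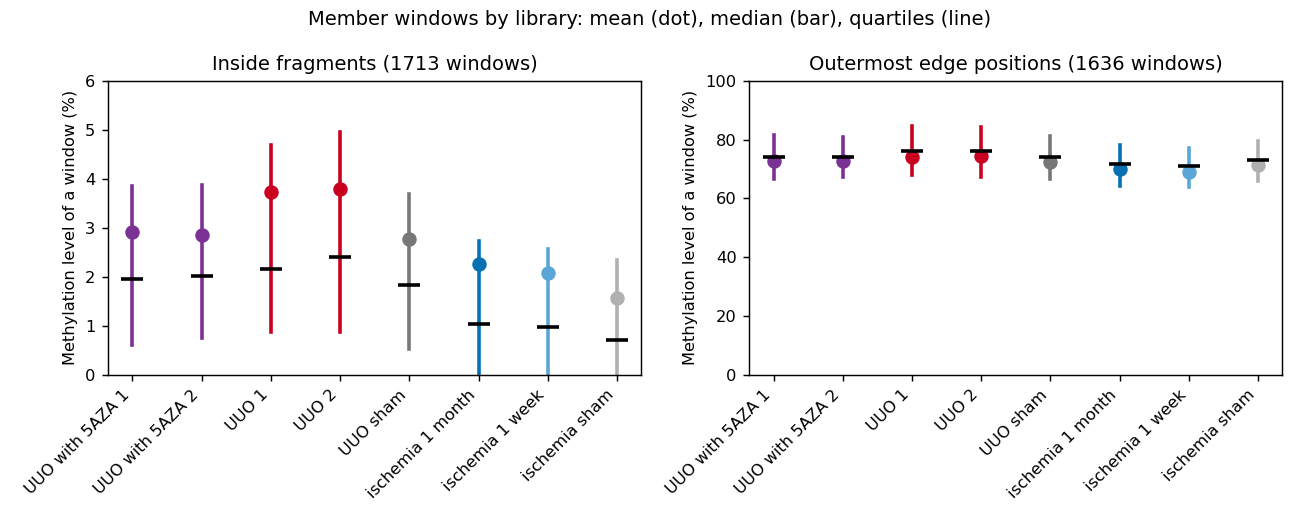
Methylation level of a window (percent, y axis) in each library (x axis), inside fragments (left, axis from 0 to 6) and at outermost edge positions (right, axis from 0 to 100). Dots are means over windows, black bars medians and lines the quartiles. Inside fragments the UUO libraries have means of 3.73% and 3.80% and the ischemia sham library the lowest, 1.56%, while the means at outermost positions are 69.1% to 74.5%.

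**Figure D3:**
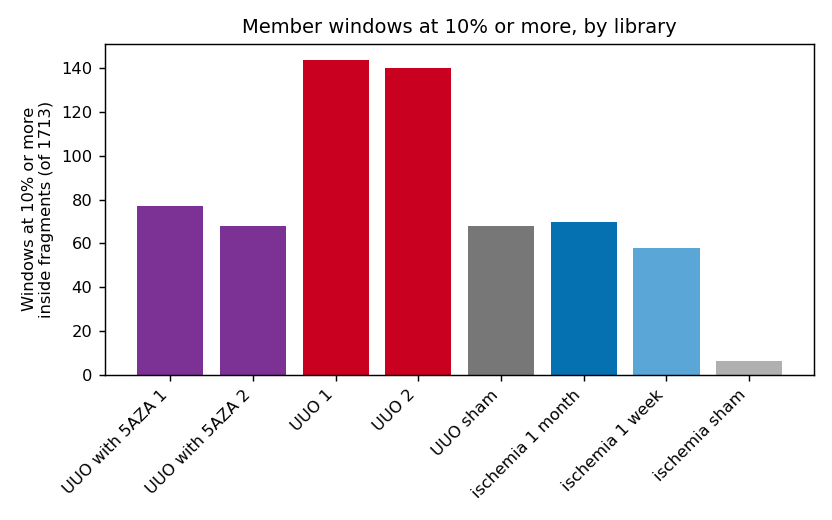
Number of windows at 10% or more inside fragments (y axis, of 1713) in each library (x axis). UUO libraries hold 144 and 140, the UUO with 5AZA libraries 77 and 68 and the UUO sham 68, and the 6 in the ischemia sham follow from the rule.

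Window by window, the distribution of differences was shifted and skewed. Between UUO and its sham, the median difference (UUO minus sham) was 0.65 points, with quartiles of -0.52 and 2.03. Both UUO libraries lay above the sham in 660 windows (38.5%), against 42.1% of the 74266 windows of the whole table with a position inside fragments, and both lay below it in 378 (22.1%), against 25.8%. The difference reached 10 points upward in 39 windows and downward in 6, while 8.62% and 3.47% of all such windows did so. These shares were no larger in the CpG-poor unmethylated windows than in the table as a whole, but the comparison is limited by the low levels of these windows. A fall of 10 points needs a level of 10% or more, which 68 of the 1713 windows (3.97%) had in the UUO sham. Nothing is therefore read from the difference between the shares. For 5AZA the median difference was -0.32 points. Both UUO with 5AZA libraries lay below both UUO libraries in 383 windows (22.4%), against a background of 45.2%, and above them in 189 (11.0%), against 5.83%. Differences of 10 points were downward in 40 windows and upward in 1, against 18.2% and 0.617% of all such windows. The same limit holds here, with 144 and 140 of the 1713 windows at 10% or more in the UUO libraries.

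The direction held on each chromosome. UUO exceeded its sham on 19 of 19 autosomes, from 0.52 points on chromosome 9 to 1.98 on chromosome 13, and UUO with 5AZA was below UUO on 19 of 19, from -1.62 points on chromosome 13 to -0.37 on chromosome 9. Chromosomes are parts of the same libraries and are not replicates. UUO with 5AZA was above the UUO sham on 15 chromosomes and below it on 4.

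No single window passed the main test in any comparison. A quasi-binomial model on methylated and total reads over all positions, with Benjamini-Hochberg adjustment over 93730 windows, called a window where the adjusted p was under 0.05 and the groups were 10 points or more apart. For UUO against UUO sham it called 0 of 1966 members, against 0.0181% of all windows, and 74 members (3.76%) had an unadjusted p below 0.05, against 8.13% of all windows. In UUO with 5AZA against UUO it called 0 members, against 0.361% of all windows, with 54 members (2.75%) at the unadjusted level, against 24.2%. With 5AZA against the UUO sham, 0 members were called, against 0.00213%, and 25 members (1.27%) passed unadjusted, against 12.5%. Ischemia 1 month against ischemia 1 week gave 0 members, against a background of 0%, and 16 members (0.81%) unadjusted, against 4.51%. In the same 4 comparisons edgeR's quasi-likelihood test and limma also called 0 members. The smallest adjusted p of a member was 0.271, 0.0529, 0.317 and 0.891 in those 4 comparisons, and the median standard error of a window's difference was 3.77, 3.10, 3.78 and 3.64 points. A shift of about 1 point in a single window was not detectable at this depth, with a median of 212 to 319.5 reads per window over all positions. Inside fragments, which this test did not take apart, the median was 105 to 164 reads.

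Many large differences between UUO and its sham over all positions shrank when the balance of reads between edges and the inside was set aside. Between UUO and its sham, 36 members were at least 10 points higher in UUO and 64 at least 10 points lower when reads were summed over positions, 100 in all, while 4.53% of all windows differed by that much. With each position given equal weight, a measure added after the values were seen, 31 were at least 10 points higher and 2 at least 10 points lower, and 29 of the 100 kept a difference of that size and direction. In these 100 windows the median size of the difference was 12.76 points with summed reads and 3.80 points with equal weights. For 5AZA against UUO the counts were 7 higher and 22 lower with summed reads, and 1 higher and 21 lower with equal weights, and 5.98% of all windows differed by 10 points with summed reads. Here 18 of the 29 kept their size and direction, and the median size was 12.53 points with summed reads and 10.92 points with equal weights. The shares of all windows with equal weights are not given here. Nothing particular to the members is therefore read from the split between higher and lower.

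The window on chromosome 7, 20093001 to 20094000, shows this most plainly. Its level over all positions was 16.8% and 39.6% in the UUO with 5AZA libraries, 16.6% and 24.3% in the UUO libraries and 55.0% in the UUO sham library, and the difference (UUO minus sham) was -34.60 points (SE 9.30, adjusted p = 0.320). None of its single positions moved in that way. The outermost position read 82.8% and 67.7% in the UUO libraries and 78.1% in the sham, and both inside positions read 0% in all 3. What differed was depth, with 58 and 65 reads at the outermost position in the UUO libraries and 105 in the sham, against 58 and 30 reads at an inside position in the UUO libraries and 11 in the sham. Next in size was the window on chromosome 3, 33980001 to 33981000, with a difference (UUO minus sham) of -33.93 points (SE 12.07, adjusted p = 0.461) with 0% inside fragments in the UUO and UUO sham libraries. On chromosome 11, the window from 77580001 to 77581000 had a difference of -30.61 points (SE 7.63, adjusted p = 0.300), with 0% inside fragments in both UUO libraries and 2 methylated of 16 reads (12.5%) in the sham.

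The window on chromosome 8, 59362001 to 59363000, came closest to a call and differed at its inner positions. Its level over all 5 positions was 32.5% and 30.1% in the UUO with 5AZA libraries, 49.6% and 51.5% in the UUO libraries and 28.3% in the UUO sham library. UUO was higher than the sham by 22.22 points (SE 5.19, adjusted p = 0.309), and the difference of UUO with 5AZA minus UUO was -19.27 points (SE 3.67, adjusted p = 0.0529). Neither difference passed the threshold, although UUO with 5AZA against UUO did so with replicate number as a block (adjusted p = 0.0283 by the same quasi-binomial test). At its single position inside fragments, 59362433, the level was 28.1% and 14.3% in the UUO with 5AZA libraries, 46.7% and 51.5% in the UUO libraries and 30.0% in the UUO sham library. At both depth-step positions beside it the UUO libraries were also above the other 3 libraries of the experiment, with 26.7% and 39.4% at position 59362427 in the UUO libraries and 6.7% in the sham. The ischemia libraries differed as well, with 33.3% at 1 month, 14.0% at 1 week and 8.33% in the sham at the inside position. With 30 reads in the UUO sham, its 95% exact binomial interval at that position runs from 14.7% to 49.4%, for counting error only.

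On chromosome 15, the window from 98849001 to 98850000 had 19.6% and 9.68% inside fragments in the UUO with 5AZA libraries, 49.3% and 40.9% in the UUO libraries and 35.3% (17 reads) in the UUO sham library. Over all positions the difference of UUO with 5AZA minus UUO was -20.39 points (SE 4.73, adjusted p = 0.0656, and 0.0371 with replicate number as a block). The same window differed most between the ischemia times by the unadjusted p, at 13.0% inside fragments at 1 month and 51.4% at 1 week, a difference (1 month minus 1 week) of -24.43 points over all positions (SE 5.00, adjusted p = 0.891). It also had the highest level of all members in the UUO sham, followed by the window on chromosome 8. These windows met the rule through 9.68% and 8.33% in the ischemia sham library, close to the threshold.

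Of the 26 windows with at least 50 reads that reached 10% in both UUO libraries and not in the sham, 22 had both UUO with 5AZA libraries below both UUO libraries, against 383 of all 1713 members. These windows were chosen for high values in UUO, so nothing is read from the 22. Some of them are given here after their values were seen. On chromosome 6, the window from 128349001 to 128350000 had 12.9% and 6.50% in the UUO with 5AZA libraries, 28.4% and 25.9% in the UUO libraries and 6.41% in the UUO sham library. All 3 of its inside positions were higher in both UUO libraries than in the sham. On chromosome 5, the window from 125562001 to 125563000 had 0.91% and 5.51% in the UUO with 5AZA libraries, 17.4% and 18.2% in the UUO libraries and 5.80% in the UUO sham library. In the window on chromosome 17, 12120001 to 12121000, UUO and 5AZA overlapped, with 20.9% and 16.1% in the UUO with 5AZA libraries, 15.5% and 25.4% in the UUO libraries and 5.66% in the UUO sham library. None of these windows was called, except that with replicate number as a block the window on chromosome 5 was called for UUO with 5AZA against UUO, at -14.83 points over all positions (adjusted p = 0.0388).

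**Figure D4:**
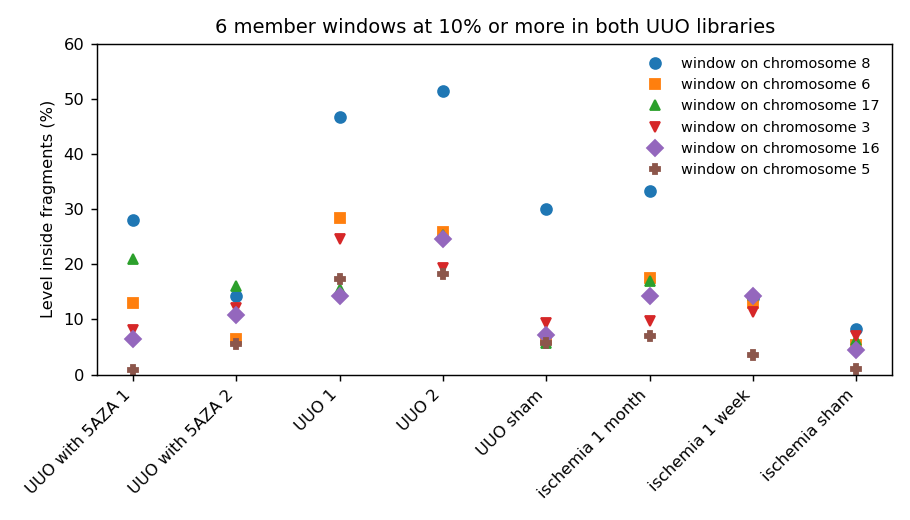
Methylation level inside fragments (percent, y axis) in each library (x axis) for 6 windows chosen after their values were seen, each named by its chromosome. All 6 are at 10% or more in both UUO libraries, and the window on chromosome 8 reaches 46.7% and 51.5% there.

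Some of the most deeply covered windows were low in every library of the obstruction experiment. The window on chromosome 7, 132634001 to 132635000, had the most reads in the UUO sham, and its inside level was 1.17% and 4.52% in the UUO with 5AZA libraries, 0.80% and 3.14% in the UUO libraries and 1.28% in the UUO sham. On chromosome 11, the window from 113026001 to 113027000 had 1.53% and 1.46% in the UUO with 5AZA libraries, 2.32% and 1.32% in the UUO libraries and 0.54% in the UUO sham. All of these levels were below 5%. Deeply covered windows reached 10% less often, but some did. Of 562 windows with at least 100 reads inside fragments in every library, 12 and 9 were at 10% or more in the UUO with 5AZA libraries. The counts were 27 and 27 in the UUO libraries and 7 in the UUO sham library. As shares these were 2.14% and 1.60% with 5AZA, 4.80% and 4.80% in UUO and 1.25% in the sham. Over all 1713 windows the shares were 4.50% and 3.97%, 8.41% and 8.17%, and 3.97%.

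In the ischemia experiment, the mean level inside fragments was 2.26% at 1 month, 2.07% at 1 week and 1.56% in the sham, with 70 windows at 10% or more at 1 month, 58 at 1 week and 6 in the sham. The 2 times differed by 0.19 points, with 11 windows at least 10 points higher at 1 month and 8 at least 10 points lower, against 6.13% and 3.57% of all windows with a position inside fragments. With 1 library each, no replicate spread is available for that difference. The levels were 0.70 points (1 month) and 0.51 points (1 week) above the sham, and 26 and 23 windows were at least 10 points higher with 1 and 1 lower, against backgrounds of 6.96% and 4.92% higher and 5.09% and 5.73% lower. Only the 6 windows at 10% or more in the sham could fall by 10 points from it. The 2 differences from the sham use the library that chose the windows. In windows chosen by the same rule in the UUO sham instead, they were 0.41 and 0.14 points, and the difference between the times was 0.28 points.

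Libraries of the obstruction experiment read higher than those of the ischemia experiment also where little methylation was present. The median window had 1.83% to 2.40% in the 5 libraries of the obstruction experiment and 0.71% to 1.03% in the 3 libraries of the ischemia experiment. In 10726 CpG-dense unmethylated windows, with 20 or more positions, the medians were 1.72% to 1.97% in the obstruction experiment and 0.77% to 0.82% in the ischemia experiment. At the lowest of 10 mitochondrial positions shared by all libraries, the ischemia experiment read 0.30% to 0.36%, below every library of the obstruction experiment. Any effect of library preparation cannot be told apart from the experiment, and no test was made between the experiments. Within the obstruction experiment, the CpG-dense unmethylated windows had mean levels of 2.24% and 2.27% with 5AZA, 2.40% and 2.48% in UUO and 2.16% in the sham, the same order as in the CpG-poor ones with smaller gaps.

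Outermost edge positions had the same order of groups in the obstruction experiment as positions inside fragments. At outermost positions the mean per window was 72.71% ± 0.06 in UUO with 5AZA and 74.40% ± 0.18 in UUO (SD, n = 2 each), against 72.38% in the UUO sham, and 70.05% at 1 month and 69.14% at 1 week of reperfusion, against 71.31% in the ischemia sham. UUO was thus 2.01 points above its sham and UUO with 5AZA 1.69 points below UUO, while both ischemia libraries were below their sham. In CpG-dense unmethylated windows the outermost positions moved alike, with UUO 1.58 points above its sham. Depth-step positions had 21.25% ± 0.80 in UUO with 5AZA and 21.66% ± 0.44 in UUO (SD, n = 2 each), against 21.93% in the UUO sham, within the spread of the pairs. Reads at edges made up 50.3% to 53.9% of the reads in these windows.

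Many of the windows lay beside CpG-dense ones. Of the 1966 windows, 807 (41.05%) lay next to a window with 20 or more measured positions, 153 (7.78%) lay 2 to 5 kb from one and 1006 (51.2%) lay farther away. Among CpG-poor windows at 90% or more, 0.74% lay next to one. Of 1680 measured windows directly beside a member, 81.3% had a median below 10% in the UUO sham library. The share was 80.7% beside CpG-dense unmethylated windows, so it was not particular to the members. It was 27.0% beside CpG-poor windows at 10 to 90% and 6.8% beside CpG-poor windows at 90% or more. These shares describe the windows' surroundings in a library that the rule did not use.

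Windows beside CpG-dense ones had the lowest levels and the smallest differences of UUO from its sham and of UUO with 5AZA from UUO. Next to a CpG-dense window, the mean level inside fragments was 2.30% in UUO with 5AZA, 2.71% in UUO and 2.17% in the UUO sham, which puts UUO 0.54 points above the sham and UUO with 5AZA 0.40 points below UUO. Farther than 5 kb away the levels were 3.21%, 4.40% and 3.07% in the same groups, with UUO 1.33 points above its sham and UUO with 5AZA 1.19 points below UUO. In the windows 2 to 5 kb away they were 3.84%, 5.23% and 3.96%. The order of the groups was the same near and far except that UUO with 5AZA lay 0.12 points below the sham at 2 to 5 kb. By number of positions, UUO exceeded its sham by 1.34, 0.75 and 0.91 points in windows with 3, 4 and 5 positions.

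**Figure D5:**
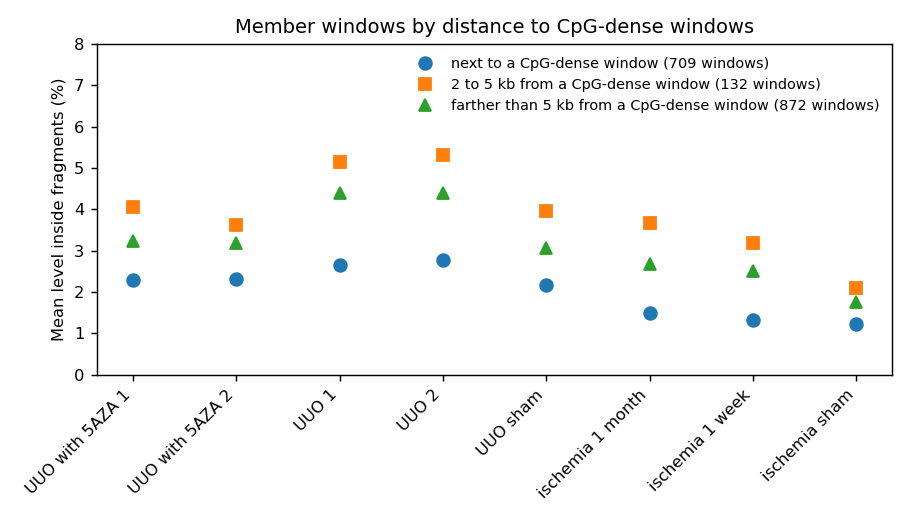
Mean methylation level inside fragments (percent, y axis) in each library (x axis) for windows next to a CpG-dense window (circles, 709 windows), 2 to 5 kb from one (squares, 132 windows) and farther away (triangles, 872 windows). Circles are lowest in every library, and the UUO libraries are highest within each distance class.

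Levels of single windows were shared between libraries only in part. Across the 1117 windows with at least 50 reads inside fragments in every library, Pearson's r between libraries was 0.51 to 0.81, with 0.65 for the UUO with 5AZA pair, 0.73 for the UUO pair and 0.81 for the ischemia times. The low end comes from pairs with the ischemia sham, 0.51 to 0.65, where the rule limited the range of levels. Pairs of the other libraries had 0.60 to 0.81. These are correlations across windows, which share library and depth and are not independent replicates. At the low end, 17 of 1713 windows had no methylated read inside fragments in any of the 8 libraries.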

How the data were processed

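RRBS was measured in 8 mouse kidney libraries of 6 groups, read from the labels. Per the submitters' processing notes, Bowtie and mm9 were used, with version and methylation caller not given in the sources used here. Each deposited table holds, per CpG position, the total read count, the methylated read count and the methylated fraction rounded to 3 decimals by the authors; the read counts were used and the fraction was not. Python 3.11.15 joined the tables, using pandas 2.3.3 and numpy 2.4.6. A window's level is methylated over total reads summed over its positions, and windows weigh equally in a mean.

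The window test was a quasi-binomial model with 1 mean per group over all 8 libraries, Pearson dispersion moderated with squeezeVar of limma 3.58.1 (R 4.3.3; prior dispersion 1.36 on 8.47 degrees of freedom, 2 residual degrees of freedom, floor 1), a two-sided F test (scipy 1.17.1) and Benjamini-Hochberg adjustment over 93730 windows. It was tested on simulated data, with differences planted in windows drawn from the whole table. There it recovered most planted differences of 20 points or more. Recovery in the members alone was not examined. It made more false calls than the nominal 5% rate, by an amount that varied with the dispersion simulated. That makes it liberal, which bears on the share of all windows called rather than on counts of 0. Alternatives were edgeR 4.0.16, limma with a pseudocount of 1, other read minimums, membership rules, weights and left-out libraries. Named windows are the 3 largest rises and falls per comparison, those highest or deepest in the UUO sham and those nearest the threshold; not every window so named is printed, and windows added after their values were seen are marked. PCR reads without molecular identifiers are not independent molecules, so intervals cover counting error only. The windows, lists and tests were chosen with earlier results of these data known. No sequences or gene annotations of the build were used here.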

Additional observations from a re-analysis of the deposited data

Results flagged for a closer look

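In the 1966 windows, mean levels over outermost edges and over all edges moved in opposite directions in the 2 injury experiments, each against its own sham. At outermost edge positions, both UUO libraries were above the UUO sham, by 2.01 points in the mean, while ischemia 1 month and ischemia 1 week differed from the ischemia sham by -1.26 and -2.17 points. Over all edge positions the differences were 0.79 points for UUO, -0.83 at 1 month and -1.18 at 1 week. Over all positions they were 0.42 points for UUO, -0.03 at 1 month and -0.10 at 1 week, too small in ischemia to give a direction. With positions weighted equally the levels were 25.36% and 25.44% in the UUO libraries against 24.16% in the UUO sham. They were 23.01% at 1 month and 22.61% at 1 week against 22.94% in the ischemia sham, so 1 month lay above its sham. Depth-step edges did not share the pattern of outermost edges, at -0.27 points for UUO, -0.15 at 1 month and 0.19 at 1 week. With reads pooled over windows the edge level ran the other way, with 42.71% and 45.39% in the UUO libraries against 47.09% in the UUO sham, and 42.01% at 1 month and 43.54% at 1 week against 41.74% in the ischemia sham. Outermost edges of CpG-dense unmethylated windows had the same directions as in the members, at 1.58 points for UUO, -1.05 at 1 month and -2.11 at 1 week. The difference between the experiments was not tested, each sham is 1 library, and the ischemia sham chose the windows.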

How the results depend on the processing

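Differences are mean levels inside fragments in percentage points. With a UUO or UUO with 5AZA library left out at a time, UUO minus UUO sham was 0.96 to 1.03. UUO with 5AZA minus UUO was -0.91 to -0.85, and UUO with 5AZA minus UUO sham was 0.09 to 0.15. The UUO sham is a single library and could not be left out.

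UUO minus UUO sham (1.00) kept its sign under the alternatives listed here except at depth-step positions. It was 0.79 at edge positions only (2.01 at outermost and -0.27 at depth-step positions), 0.42 over all positions and 0.88 at 20 reads. For members at a median below 5% and 20% it was 0.81 and 1.57. It was 1.50 for members by summed reads and 0.71 with reads pooled inside fragments. Chosen after seeing the data were 1.90 for members by the median inside fragments, 0.92 at 50 reads inside fragments and 1.32 without members next to a CpG-dense window. UUO with 5AZA minus UUO (-0.88) kept its sign, in the same order: -1.06 (-0.41 at depth-step positions), -0.70, -0.82, -0.61 and -1.56, then -0.83 for members chosen in the UUO sham, -0.58 with reads pooled, -1.90, -0.76 and -1.22.

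The smaller differences depended on the setting. UUO with 5AZA minus UUO sham (0.12) was -0.27 at edges, -0.28 over all positions and -0.01 for members by the median inside fragments, and 0.06 at 20 reads, 0.20 and 0.01 for medians below 5% and 20% and 0.58 by summed reads. Ischemia 1 month minus 1 week (0.19) was -0.33 by summed reads (97 windows), 0.35 at edges, 0.07 over all positions, 0.34 at a median below 20%, 0.28 for members chosen in the UUO sham, 0.08 pooled and 0.47 by the median inside fragments. Against the ischemia sham, 1 month (0.70) was -0.83 at edges, -0.03 over all positions, 0.62 at 20 reads, 0.95 at a median below 20%, 1.10 by summed reads, 0.41 for members chosen in the UUO sham, 0.51 pooled, 1.65 by the median inside fragments, 0.59 at 50 reads and 1.01 away from CpG-dense windows. In the same order, 1 week (0.51) was -1.18, -0.10, 0.42, 0.61, 1.43, 0.14, 0.43, 1.18, 0.42 and 0.80. The cause of these changes was not tested.

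Members called numbered 0 to 1 for UUO against UUO sham and 0 to 5 for UUO with 5AZA against UUO when one library was left out; the 1 came without either UUO with 5AZA library, and with only the compared groups in the fit, and was the window on chromosome 7 from 20093001, whose read balance differed (adjusted p = 0.0329). The 5 came without UUO with 5AZA library 1. All 5 were higher in UUO with 5AZA than in UUO, by 12.48 to 24.35 points over all positions. They included that chromosome 7 window. They also included the window on chromosome 11 from 77580001, at 0% inside fragments in the UUO with 5AZA and UUO libraries. The UUO and UUO with 5AZA libraries share replicate numbers, but the deviations of same-numbered libraries correlated at 0.07 over all windows and 0.34 over members, and no label makes them pairs. With replicate number as a block, 6 members were called for UUO with 5AZA against UUO, and the mean difference was -0.88. Of the 6, 4 were lower (among them the windows on chromosomes 5, 8 and 15 described above) and 2 higher. The chromosome 11 window from 77580001 was among the 2 higher, at 12.53 points. All other alternatives called 0 members. With 1 library in 4 groups, the spread comes from the 2 pairs alone.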
